A study of Rattus norvegicus with 30 samples.

Results

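Glucuronosyltransferases (UGTs) and the enzymes that make their sugar donor were followed in liver RNA of 3 animal models on 2 diets. The set was given as 8 rat symbols: the transferases Ugt2b1, Ugt2b7, Ugt2b17, Ugt2a3, Ugt1a1 and Ugt1a6, and the supply enzymes Ugdh and Ugp2. All non-control probes whose transcript accession maps to one of these symbols were taken, which gave 8 of the 30367 probes on the array. Of the 8 symbols, 6 were found under their present name, and Ugt1a6 had 2 probes, both designed to the same transcript. Ugt2b17 is no longer a rat symbol. It is listed as an older name of Ugt2b15, and also of Ugt2b1, so it was read through the Ugt2b15 probe, a choice made after the names were seen. No probe matched Ugt1a1, which is not analysed here. The values therefore cover 7 of the 15170 genes that probes could be named for.

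Gene expression was measured on 30 one-colour rat arrays of liver RNA from males fed for 7 days. Chimeric mice with rat hepatocytes gave 7 arrays on control diet (0 ppm) and 7 on a diet with 1000 ppm PB, which is phenobarbital per the study's title. Crl:CD(SD) rats, hereafter SD rats, gave 4 on control diet and 4 on PB, and so did CAR KO rats, which lack the constitutive androstane receptor encoded by Nr1i3. The labels call the arrays biological replicates. The labels used here state no ages, no strain for the CAR KO rats and none for the host mice. Livers of such chimeric mice keep cells of the mouse host, and whether rat probes read mouse RNA was not tested.

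UGTs are enzymes of the endoplasmic reticulum that join glucuronic acid to bilirubin, steroids, bile acids and drugs, which makes them soluble enough to leave in bile or urine. The donor is UDP-glucuronate, made in the cytosol from glucose 1-phosphate by UDP-glucose pyrophosphorylase (Ugp2) and then UDP-glucose dehydrogenase (Ugdh). Phenobarbital raises several liver UGTs, in large part through CAR.

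The genes' places in the genome and the bases before their starts come from RefSeq, assembly GRCr8, where all 8 genes were matched. Ugt2a3, Ugt2b15, Ugt2b7 and Ugt2b1 lie in this order in one cluster of UGT2 genes on chromosome 14, which also holds Ugdh and Ugp2. Ugt1a6 and Ugt1a1 lie on chromosome 9 and end at the same base, since UGT1A genes have first exons of their own and share the exons that follow. The 3 genes that rose on PB in SD rats are shown first, 5′ to 3′, each from 250 bases before the start that the RefSeq promoter table uses. The annotated Ugdh gene begins 38 bases before that start, so only the first 212 of its 250 bases are printed. Capitals mark matches, on either strand, to the motifs named after the sequences.
Ugt2b1, chr14:21378632-21378881, strand +: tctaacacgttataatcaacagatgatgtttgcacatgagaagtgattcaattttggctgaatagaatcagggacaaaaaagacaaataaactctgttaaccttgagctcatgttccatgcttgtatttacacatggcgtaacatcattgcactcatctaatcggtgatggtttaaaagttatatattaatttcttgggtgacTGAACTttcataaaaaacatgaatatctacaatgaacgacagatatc
Ugt1a6, chr9:96194768-96195017, strand +: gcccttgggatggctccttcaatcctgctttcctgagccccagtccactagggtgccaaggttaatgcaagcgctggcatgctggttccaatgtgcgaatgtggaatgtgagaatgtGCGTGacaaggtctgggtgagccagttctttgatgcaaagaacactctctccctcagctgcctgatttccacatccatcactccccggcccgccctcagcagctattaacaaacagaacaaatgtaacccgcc
Ugdh, chr14:43202268-43202479, strand +: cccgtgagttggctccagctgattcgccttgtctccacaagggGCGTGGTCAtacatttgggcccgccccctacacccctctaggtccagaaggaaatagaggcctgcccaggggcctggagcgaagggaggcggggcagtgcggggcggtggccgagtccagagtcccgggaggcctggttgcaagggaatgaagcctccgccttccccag
The motifs searched in the 250 bases before each table start, on both strands, were the nuclear receptor half-sites AGGTCA and AGTTCA, any 2 of these in the same direction with 4 bases between, the HNF1 site (GTTAAT and ATTAAC with 1 base between), the antioxidant response core TGACNNNGC, the xenobiotic response core GCGTG and TATAAA. Counted back from the table start, Ugt2b1 held AGTTCA on the opposite strand at -47 to -42, a motif found in 12.2% of all 33469 promoter windows of this length. Ugt1a6 held GCGTG at -133 to -129, found in 25.9% of windows. Ugdh held the same GCGTG at -207 to -203, which overlaps TGACNNNGC read on the opposite strand at -207 to -199, found in 10.1%. Genes that did not pass the test for PB in SD rats held such motifs too. Ugt2b15 held AGGTCA at -27 to -22, a motif found in 14.1% of windows. Ugt2a3 held AGGTCA on the opposite strand at -82 to -77, and Ugp2 held GCGTG at -112 to -108. The matches therefore do not set apart the genes that rose in SD rats. No motif was found before Ugt2b7 or Ugt1a1. No spaced repeat was found before any of the 8 genes, and 5 of the 33469 windows hold one. A match is a description of letters, and no binding was measured.

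Ugt2b7 and Ugt2b15 are shown because they have the longest run of bases in common among the 8 genes' windows, 25 bases, given in capitals. Capitals mark only this run here, so the AGGTCA match of Ugt2b15 is in lower case.
Ugt2b7, chr14:21251285-21251534, strand +: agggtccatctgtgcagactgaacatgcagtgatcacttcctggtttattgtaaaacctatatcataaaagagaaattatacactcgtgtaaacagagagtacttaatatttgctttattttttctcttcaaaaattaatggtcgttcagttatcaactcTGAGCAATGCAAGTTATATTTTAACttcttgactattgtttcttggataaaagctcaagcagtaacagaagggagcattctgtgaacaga
Ugt2b15, chr14:21122616-21122865, strand +: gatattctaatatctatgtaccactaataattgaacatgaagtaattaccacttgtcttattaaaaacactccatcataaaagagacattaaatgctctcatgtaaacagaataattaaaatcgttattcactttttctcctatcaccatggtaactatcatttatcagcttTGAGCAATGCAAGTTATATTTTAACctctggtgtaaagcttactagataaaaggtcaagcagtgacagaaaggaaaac
Of the 33469 windows, 7 hold this run, among them those of the cluster genes Ugt2b, Ugt2b35 and Ugt2b37. Ugt2b1, in the same cluster, shares at most 9 bases in a row with either gene. Transcripts of this cluster are close in sequence, and so are UGT1A transcripts. The files hold no probe sequences, so how far a probe also reads a related gene was not tested, and each value belongs to the probe.

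A level is given here as log2 of the background-subtracted signal minus the array's 75th percentile, so that 0 is as bright as that percentile and a difference of 1 is a doubling. Levels of different probes are not comparable with each other. The 75th percentile of signal ran from 414 to 568 on rat arrays and from 197 to 318 on chimeric arrays. Probes called well above background made up 58.7% to 67.0% of a rat array and 50.8% to 58.1% of a chimeric array. Arrays of a rat group correlated at 0.987 or more and chimeric arrays of a group at 0.975 or more. SD arrays lay on 1 slide and CAR KO arrays on another, so slide and rat model cannot be told apart, nor can diet and slide row, which held 1 diet each. All chimeric controls and 1 chimeric PB array shared a slide, and the other 6 chimeric PB arrays lay on another. All 12 hepatocyte markers were well above background on every array. The level of Cyp2b2, a cytochrome P450 known to respond to PB, rose by 4.03 ± 0.138 (SE) in SD rats by its first probe and 6.96 ± 0.282 by its second, and differed by -0.09 ± 0.138 and -0.16 ± 0.283 in CAR KO rats. The Nr1i3 probes differed by -0.05 ± 0.304 and 0.09 ± 0.325 between the models on control diet, and since no label says whether they read the part removed, they do not check the knockout.

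In SD rats, PB raised Ugt2b1, Ugt1a6 and Ugdh. Ugt2b1, a steroid- and drug-conjugating transferase of rat liver, was 9.35-fold higher, Ugt1a6, which conjugates small planar phenols, 1.79-fold higher, and Ugdh 1.31-fold higher, with 4 arrays per diet. In all, 3 of the 6 member genes tested were called higher and 0 lower, against 2.42% of the 19041 probes called higher and 1.72% called lower (4.14% in either direction). The members' median log2 difference was 0.54, and that of all probes tested was -0.02.

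The Ugt2b1 level was 3.68, 3.32, 4.54 and 3.23 in the 4 SD controls and 6.84, 7.09, 7.13 and 6.60 in the 4 SD rats on PB. Every PB array was above every control, with more than 2 units between the groups. The difference was 3.23 ± 0.405 (SE), with limma's adjusted p of 0.00049. Groups that did not overlap were seen for 11.6% of the probes tested in this comparison.

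For Ugt1a6, the first probe gave levels of 5.59, 5.89, 5.22 and 6.16 in SD controls and 6.61, 6.79, 6.52 and 6.30 on PB. The diets did not overlap, although control 4 and PB 4 differed by little. The first probe rose by 0.84 ± 0.165 (adjusted p = 0.0118) and the second probe by 0.78 ± 0.187 (adjusted p = 0.0315). Both Ugt1a6 probes followed each other over the 16 rat arrays (Pearson r = 0.971, a description over arrays that share groups). In a fit of the 8 SD arrays alone, the first probe had an adjusted p of 0.0989, and Ugt2b1 alone of the members was called. The call of the second probe was lost without any one of SD control 1 or 3 or SD PB 1, 2 or 3 (adjusted p from 0.0669 to 0.0841).

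Ugdh, which makes the donor, was at 1.59, 1.72, 2.02 and 1.55 in SD controls and at 2.13, 2.12, 2.24 and 1.95 on PB. SD PB 4 lay below SD control 3, so the diets overlapped. Its difference of 0.39 ± 0.103 had an adjusted p of 0.0488, just inside the threshold of 0.05. Leaving out any one of 6 of the 8 SD arrays (control 1, 2 or 4, PB 1, 2 or 3) took the call away, with adjusted p from 0.0821 to 0.126. So did a fit of the SD arrays alone (adjusted p = 0.151).

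The other members did not pass the test in SD rats. Ugt2a3, a UGT2A enzyme of liver and intestine, differed by 0.70 ± 0.309 (adjusted p = 0.226). Its controls were widely spread, at 1.88, 2.77, 2.93 and 1.08, against 3.05, 2.52, 3.08 and 2.79 on PB. Ugt2b15, a steroid-conjugating transferase, differed by 0.22 ± 0.123 (adjusted p = 0.340), and Ugp2, the enzyme that makes UDP-glucose, by -0.21 ± 0.125 (adjusted p = 0.373). SD control 4 had the lowest level of its group for Ugt2b1, Ugt2b15, Ugt2a3 and Ugdh and the highest for both Ugt1a6 probes. Ugt2b7 was not tested in rats: it was well above background on 1 of 4 SD controls, 1 of 4 SD PB arrays, 2 of 4 CAR KO controls and 1 of 4 CAR KO PB arrays.

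**Figure D1:**
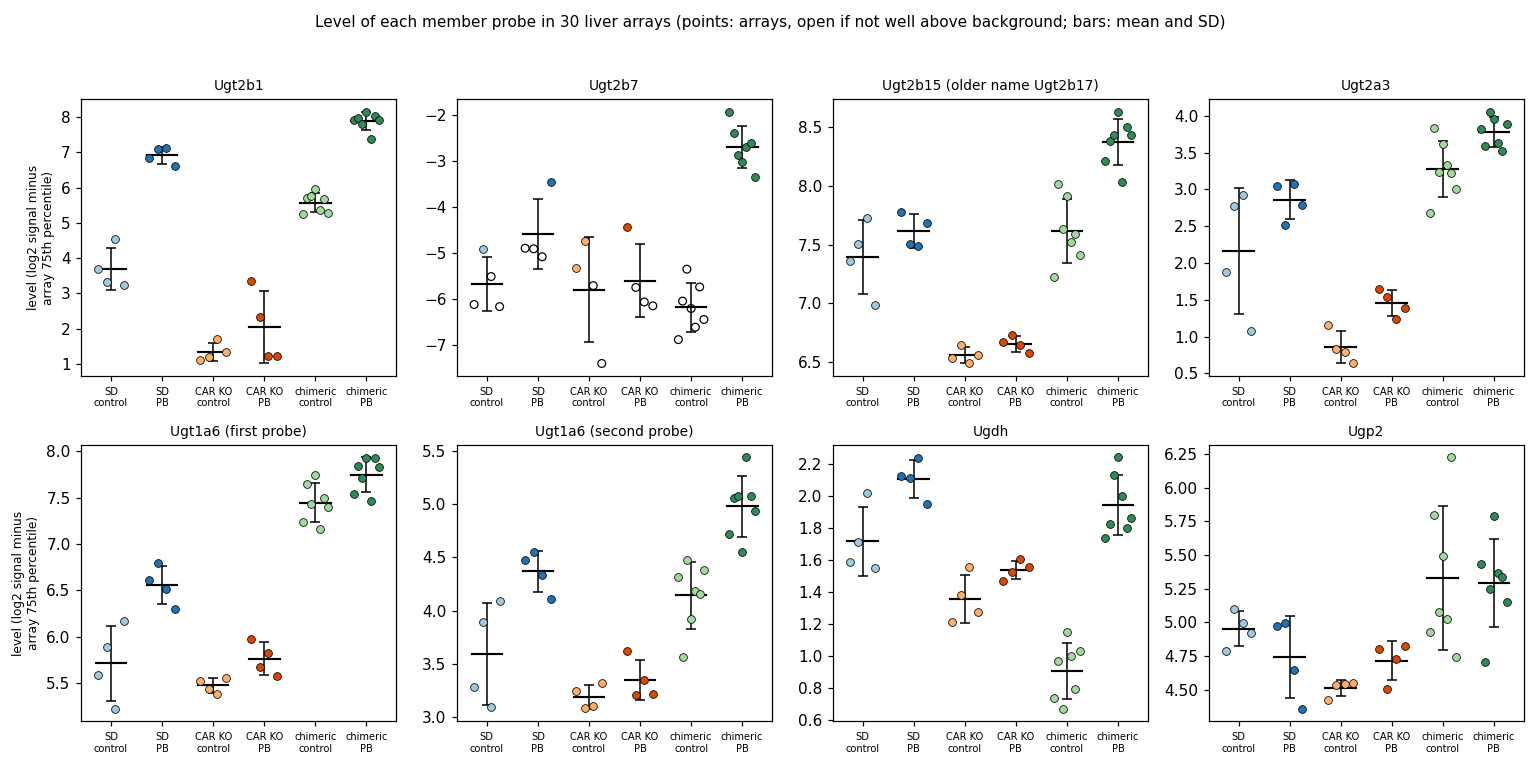
Level of each member probe (vertical axis, log2 signal minus the array's 75th percentile, a separate scale in each panel) in the 6 groups; points are arrays, open where the probe was not well above background, and bars are the group mean and SD. The Ugt2b1 panel shows all 4 SD PB arrays above all 4 SD controls (means 6.92 and 3.69), and CAR KO arrays at or below 3.36.

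In CAR KO rats, no member passed the test for PB. The 6 member genes tested all had differences above 0, from 0.10 to 0.70, and 0 of 6 were called by limma, with 0 of 6 at an unadjusted p under 0.05. Over all 19643 probes tested, 0.153% were called (0.0458% higher and 0.107% lower), and 3129 had an unadjusted p under 0.05. The members' median difference was 0.25, against -0.02 over all probes.

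Ugt2b1 was at 1.11, 1.18, 1.70 and 1.33 in CAR KO controls and at 3.36, 2.33, 1.23 and 1.22 in CAR KO rats on PB. PB arrays 1 and 2 lay above all 4 controls, while PB arrays 3 and 4 lay among them. The difference was 0.70 ± 0.406 (adjusted p = 0.423), with a 95% interval from -0.17 to 1.57 that leaves out the size seen in SD rats. Without CAR KO PB 1 it was 0.26.

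Ugt2a3 was at 1.16, 0.83, 0.80 and 0.64 in CAR KO controls and at 1.64, 1.54, 1.24 and 1.39 on PB. All PB arrays lay above all controls, with a difference of 0.60 ± 0.310 (adjusted p = 0.364). The first Ugt1a6 probe also had no overlap between diets, at 5.38 to 5.56 in controls and 5.57 to 5.97 on PB (0.29 ± 0.166, adjusted p = 0.419), while its second probe overlapped (0.16 ± 0.187). Among all probes tested, 10.5% had no overlap. Ugdh differed by 0.18 ± 0.103, Ugp2 by 0.20 ± 0.125 and Ugt2b15 by 0.10 ± 0.123, with adjusted p of 0.407, 0.458 and 0.744.

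The difference between the PB responses of the rat models was tested directly. For Ugt2b1 the response of CAR KO rats was lower than that of SD rats by 2.52 on the log2 scale (-2.52 ± 0.575), with an adjusted p of 0.0808. By limma 0 of 6 members were called, although 3 of 6 had an unadjusted p under 0.05 (Ugt2b1, Ugt1a6 and Ugp2). Of the 19948 probes, 0.476% were called (0.0852% higher and 0.391% lower), and 2572 had an unadjusted p under 0.05. Ugt2b1 was called lower without CAR KO PB 1 (-2.96, adjusted p = 0.0100), with all 30 arrays in the fit (adjusted p = 0.00593) and after normexp background correction (adjusted p = 0.0483). The Ugt1a6 difference was -0.55 ± 0.235 (adjusted p = 0.339) by the first probe and -0.62 ± 0.266 (adjusted p = 0.341) by the second. For Ugp2 it was 0.41 ± 0.177 (adjusted p = 0.342) and for Ugdh -0.21 ± 0.146 (adjusted p = 0.592). Ugt2a3 and Ugt2b15 differed by -0.10 ± 0.439 and -0.12 ± 0.174.

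In chimeric mice, whose hepatocytes are of rat, PB raised Ugt2b1, Ugt2b7, Ugt2b15, Ugt2a3 and Ugdh. Ugt2b1 was 4.99-fold higher, Ugt2b7 at least 7.22-fold, Ugdh 2.05-fold, Ugt2b15 1.70-fold and Ugt2a3 1.42-fold, over 7 arrays per diet. In all, 5 of 7 member genes tested were called higher and 0 lower, where 19.2% of the 15999 probes were called higher and 22.5% lower (41.7% in either direction). Ugt2b7 is among the 5 but passed the filter only through its PB arrays, where it was high. Its direction was thus set by the filter, and its call adds no support to the count. The members' median difference was 0.76, against 0.07 over all probes.

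Ugt2b1 ran from 5.24 to 5.95 (median 5.67) in the 7 chimeric controls and from 7.38 to 8.15 (median 7.93) on PB. No PB array came near a control, and the groups differed by 2.32 ± 0.142 (adjusted p = 4.28e-08). Ugdh ran from 0.67 to 1.15 (median 0.97) in controls and from 1.74 to 2.24 (median 1.86) on PB, again with no overlap, and rose by 1.03 ± 0.112 (adjusted p = 1.29e-05). Non-overlapping groups were seen for 12.3% of the probes in this comparison.

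Ugt2b7, a transferase of the UGT2B cluster, ran from -6.88 to -5.35 (median -6.20) in chimeric controls, none of which was well above background. On PB it ran from -3.34 to -1.92 (median -2.69) and was well above background on all 7 arrays. The bound of at least 7.22-fold sets the PB mean against the lowest signal called well above background on each control array, or the probe's own signal where that was higher. Limma's adjusted p was 2.16e-07, but the probe was tested only because its PB arrays passed the filter. That p is therefore no support for the direction. Before scaling the signal was 2.66 to 7.35 in controls and 21.8 to 82.3 on PB, so this rise began from a dim spot. With normexp background correction, whose offset compresses dim spots, the fitted difference was 0.73, still called.

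Ugt2b15 was at 7.22 to 8.02 (median 7.59) in chimeric controls and at 8.03 to 8.63 (median 8.43) on PB. It rose by 0.76 ± 0.134 (adjusted p = 0.000415), with no overlap but only a narrow gap between the diets. Ugt2a3 was at 2.68 to 3.84 (median 3.24) in controls and at 3.52 to 4.05 (median 3.82) on PB. It rose by 0.50 ± 0.162 (adjusted p = 0.0210), and the diets overlapped. With slide as a random block it was not called (adjusted p = 0.120).

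Both Ugt1a6 probes went up in chimeric mice by different amounts. The first, at 7.16 to 7.75 (median 7.43) in controls and 7.46 to 7.93 (median 7.83) on PB, differed by 0.30 ± 0.118 and missed the threshold (adjusted p = 0.0508). The second, at 3.56 to 4.48 (median 4.18) in controls and 4.55 to 5.44 (median 5.06) on PB, rose by 0.84 ± 0.159 (adjusted p = 0.000718). The first probe passed the threshold under 6 of the alternative settings, among them quantile normalization (adjusted p = 0.00228), and on leaving out chimeric PB 1 or 5 or control 2 or 4. Ugp2 differed by -0.04 ± 0.222 (adjusted p = 0.910), with the diets overlapping almost whole, at 4.74 to 6.23 in controls and 4.70 to 5.79 on PB.

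Diet in chimeric mice went nearly with the slide. The 1 PB array on the controls' slide was above the control mean by 2.36 for Ugt2b1, 0.83 for Ugdh, 0.60 for Ugt2b15, 0.54 for Ugt2a3 and 0.58 for the second Ugt1a6 probe. The 6 PB arrays on the other slide were above it by 2.31, 1.07, 0.79, 0.49 and 0.88. For the first Ugt1a6 probe the same 2 values were 0.09 and 0.34, and for Ugp2 0.11 and -0.06. For Ugt2b7, whose controls were not well above background, they were 4.26 and 3.37. With the slide as a block, or with only that slide's arrays, the calls of Ugdh, Ugt2b15 and Ugt2a3 were lost. Both fits rest on 1 PB array, so no support is drawn from a call in them. Ugt2b7 entered these fits only through its PB arrays, where it was high. Some cell type markers were called too, in a comparison where 22.5% of all probes were called lower and 19.2% higher. Of 7 macrophage markers tested, 4 were lower, the list's summed level (relative signal, linear scale) being 55.4 to 66.2 in controls and 38.9 to 61.1 on PB. Both lymphocyte markers tested were lower, the list's sum being 0.673 to 0.848 and 0.371 to 0.691. Hepatocyte markers were lower for 2 of 12, with sums of 3229 to 3473 and 2607 to 3449. Stellate and fibroblast markers were lower for 3 of 7 and higher for 1 (sums of 4.46 to 6.65 and 3.70 to 7.18), and endothelial markers lower for 1 of 3 (16.6 to 25.1 and 14.4 to 20.6). Erythroid markers were higher for 1 of 2 (200 to 398 and 320 to 567) and cholangiocyte markers for 1 of 3 (1.69 to 3.15 and 1.25 to 2.37). Their part in the results was not tested. In bulk RNA, fewer cells of a type and less RNA per cell cannot be told apart.

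**Figure D2:**
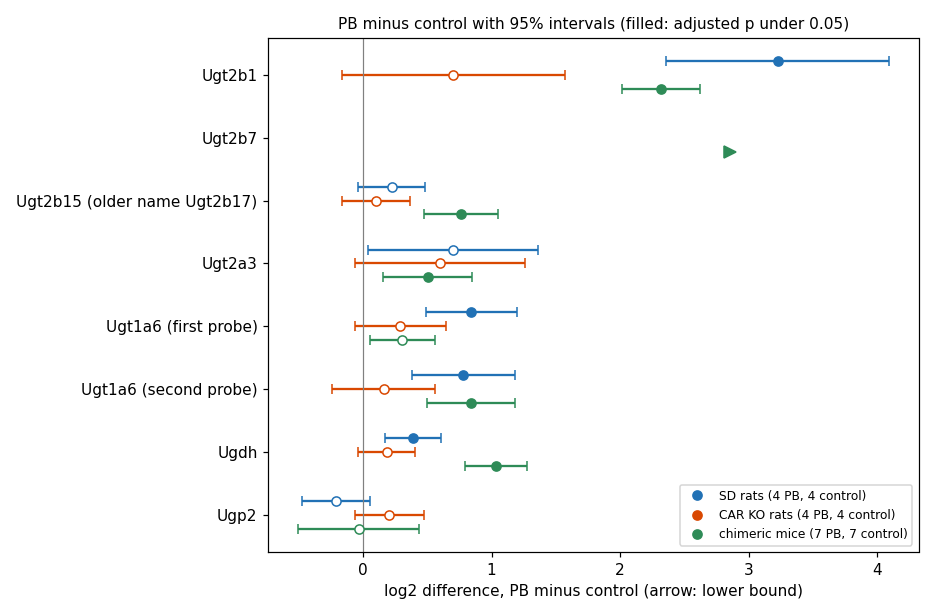
Log2 difference between PB and control diets (horizontal axis) for each member probe in SD rats, CAR KO rats and chimeric mice, with 95% intervals; filled points passed the adjusted p threshold of 0.05, and the arrow is the lower bound for Ugt2b7, which was not tested in rats. Ugt2b1 lies at 3.23 in SD rats, 0.70 in CAR KO rats and 2.32 in chimeric mice.

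Tested against the SD response, the chimeric response was higher for 3 of 7 members and lower for 0, where 6.12% of 19311 probes were called higher and 11.8% lower (17.9% in either direction). Ugdh rose more in chimeric mice by 0.64 ± 0.156 (adjusted p = 0.00502) and Ugt2b15 by 0.54 ± 0.192 (adjusted p = 0.0495). Ugt2b7 was called higher too (adjusted p = 0.00521), but its chimeric controls and most of its SD arrays were not well above background, so no size is given. It entered the test only through the chimeric PB arrays, where it was high, so its place among the 3 is no support. Ugt2b1 differed by -0.91 ± 0.404 (adjusted p = 0.123). It passed in a fit of the 22 SD and chimeric arrays (adjusted p = 0.0448), and without SD control 3 (-1.19, adjusted p = 0.0426). The first Ugt1a6 probe differed by -0.54 ± 0.202 (adjusted p = 0.0644) and the second by 0.06 ± 0.254, so the probes of this gene differed. The first was called lower after quantile normalization (adjusted p = 0.0269), normexp (adjusted p = 0.0402) or scaling by measured probes (adjusted p = 0.0151), and without SD control 4, SD PB 4 or chimeric control 5 (adjusted p = 0.0174, 0.0446 and 0.0451), and the second took a negative value under some settings (down to -0.20). Ugp2 and Ugt2a3 differed by 0.18 ± 0.293 and -0.20 ± 0.340. The Ugt2b15 call was lost in 7 of the alternative settings, with adjusted p of up to 0.839 (slide as a block). It was also lost on leaving out any one of 16 of the 22 arrays, with adjusted p of up to 0.143 (without SD control 3). With slide as a random block only Ugt2b7 was called, and Ugdh had an adjusted p of 0.0803.

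On control diet, CAR KO rats had less of most members than SD rats. Of 6 genes tested, 5 were called lower and 0 higher, where 20.2% of the 19851 probes were called lower and 13.7% higher (33.8% in either direction). The members' median difference was -0.64, against -0.09 over all probes. The models lay on separate slides and may differ in more than CAR, so the receptor, the slide and the stock cannot be told apart.

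Ugt2b1 differed most, at 3.23 to 4.54 in SD controls and 1.11 to 1.70 in CAR KO controls. That is a 5.14-fold lower level (-2.36 ± 0.406, adjusted p = 0.000565), with no overlap. Ugt2b15 was at 7.36, 7.51, 7.73 and 6.98 in SD controls and 6.53, 6.65, 6.49 and 6.56 in CAR KO controls, lower by 1.79-fold (-0.84 ± 0.123, adjusted p = 0.000155), also with no overlap. Groups with no overlap made up 34.1% of the probes in this comparison.

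Ugt2a3 was 2.47-fold lower (-1.31 ± 0.310, adjusted p = 0.00524), although SD control 4 at 1.08 lay below CAR KO control 1 at 1.16. The supply enzymes were lower too, Ugp2 by 1.36-fold (-0.44 ± 0.125, adjusted p = 0.0146) and Ugdh by 1.29-fold (-0.36 ± 0.103, adjusted p = 0.0148). Ugp2 was at 4.79 to 5.10 in SD controls and at 4.42, 4.54, 4.54 and 4.55 in CAR KO controls, with no overlap. Ugt1a6 did not pass with either probe (-0.24 ± 0.166, adjusted p = 0.283, and -0.40 ± 0.188, adjusted p = 0.115). Without SD control 3, both Ugt1a6 probes passed, with adjusted p of 0.0454 and 0.0246. With all 30 arrays in the fit, Ugdh and Ugp2 were no longer called (adjusted p = 0.0592 and 0.247), nor was Ugdh with the control arrays fitted alone (adjusted p = 0.0539). Cell type markers were called as well, where 20.2% of all probes were called lower and 13.7% higher. Hepatocyte markers were lower for 6 of 12, with summed levels of 3490 to 3643 in SD controls and 3005 to 3171 in CAR KO controls. Macrophage markers were lower for 2 of 9 (98.0 to 112 and 68.8 to 107.2), lymphocyte markers lower for 2 of 6 and higher for 1 (1.63 to 2.12 and 1.48 to 2.09), stellate and fibroblast markers lower for 2 of 8 and higher for 1 (14.7 to 21.8 and 12.6 to 22.5), and cholangiocyte markers lower for 1 of 4 (0.754 to 1.48 and 0.779 to 1.05). No endothelial or erythroid marker was called. The part of these cells in the members' differences was not tested.

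On control diet, chimeric livers had higher levels of Ugt2b1, Ugt1a6 and Ugt2a3 and a lower level of Ugdh than SD livers, which made 3 of 6 members higher and 1 lower, where 37% of the 19209 probes were called higher and 37.5% lower (74.5% in either direction). A call in this comparison is common, so the share of members called is no result about them. Ugt2b1 was 3.67-fold higher (1.88 ± 0.286, adjusted p = 1.8e-06) and Ugdh 1.75-fold lower (-0.81 ± 0.110, adjusted p = 3.3e-07), with no overlap between groups in either case, as for 60.7% of probes. The first Ugt1a6 probe was higher by 1.73 ± 0.143 and the second by 0.55 ± 0.180 (adjusted p = 0.00739), so the same gene read 3.32-fold or 1.47-fold higher by its probe. The second probe lost its call without SD control 3 (adjusted p = 0.0633), after quantile normalization (0.09, adjusted p = 0.716) and after scaling by measured probes (0.18, adjusted p = 0.411). Ugt2a3 was higher by 1.12 ± 0.241 (adjusted p = 0.000178). Ugp2 (0.37 ± 0.207, adjusted p = 0.104) and Ugt2b15 (0.22 ± 0.135, adjusted p = 0.142) did not pass, Ugp2 passing without chimeric control 7 (adjusted p = 0.0382) and Ugt2b15 without SD control 3 (adjusted p = 0.0398). Ugt2b15 took opposite directions by scaling: it was called lower at -0.45 after quantile normalization (adjusted p = 0.000586) and higher at 0.62 after median centring (adjusted p = 0.00176). Median centring moved the median of all probes by 0.40 in this comparison. Ugp2 also flipped with scaling, at -0.22 after quantile normalization and 0.78, called, after median centring. Of the other UGTs tested, 3 of 5 were lower, Ugt1a9 (-1.19 ± 0.371), Ugt2b10 (-0.62 ± 0.126) and Ugt2b35 (-0.61 ± 0.0936), and 1 was higher, Ugt2b37 (0.22 ± 0.0872). Of other cells' markers, 7 of 9 macrophage, 5 of 6 lymphocyte, 3 of 4 endothelial, 5 of 8 stellate and fibroblast, 2 of 4 cholangiocyte and 1 of 3 erythroid markers were lower, while 3 of 8 stellate and fibroblast and 2 of 4 cholangiocyte markers were higher. Hepatocyte markers were lower for 5 of 12 and higher for 1, with sums of 3490 to 3643 in SD controls and 3229 to 3473 in chimeric controls. Summed levels in SD controls and chimeric controls were 98.0 to 112 and 55.4 to 66.2 for macrophage, 1.63 to 2.12 and 0.673 to 0.848 for lymphocyte, 25.7 to 29.5 and 16.6 to 25.1 for endothelial, and 14.7 to 21.8 and 4.46 to 6.65 for stellate and fibroblast markers. They were 0.754 to 1.48 and 1.69 to 3.15 for cholangiocyte and 274 to 686 and 200 to 398 for erythroid markers. Their part in the members' differences was not tested.

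**Figure D3:**
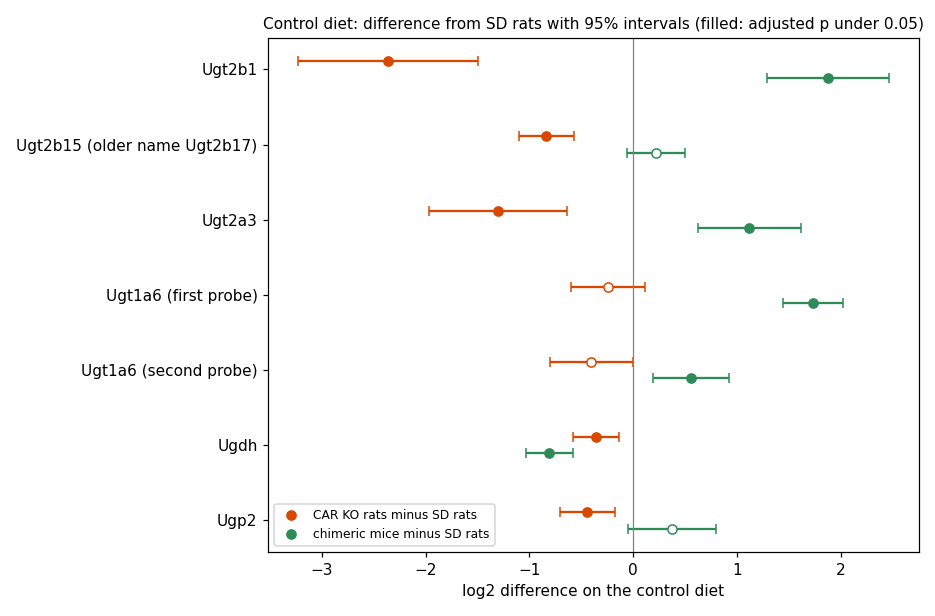
Log2 difference from SD rats on control diet (horizontal axis) for member probes in CAR KO rats and chimeric mice, with 95% intervals. Ugt2b7, not tested on control diet, is left out. Filled points passed the adjusted p threshold of 0.05. Ugt2b1 lies at -2.36 in CAR KO rats and 1.88 in chimeric mice, and Ugdh is below 0 in both.

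Set in order over the 6 groups, the Ugt2b1 level was highest in chimeric mice on PB (mean 7.89), followed by SD rats on PB (6.92), chimeric controls (5.57) and SD controls (3.69), and none of these 4 neighbours overlapped. SD controls overlapped CAR KO rats on PB (2.03), which overlapped CAR KO controls (1.33). Ugdh had another order, from SD rats on PB (2.11) through chimeric mice on PB (1.94), SD controls (1.72) and CAR KO rats on PB (1.54) to CAR KO controls (1.36), each overlapping the next, with chimeric controls (0.91) apart from the rest. For Ugt2b15, chimeric mice on PB (8.38) stood above the other groups, and CAR KO rats on PB (6.65) and on control diet (6.56) below them. The first Ugt1a6 probe put both chimeric groups (7.75 on PB and 7.45 on control diet) above SD rats on PB (6.56), while the second put SD rats on PB (4.37) above chimeric controls (4.14), with overlap. For Ugp2, the groups ran from 5.33 in chimeric controls to 4.51 in CAR KO controls, and each overlapped the next.

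Over the 16 rat arrays, the genes most like Ugt2b1 among 10704 named genes were Ugt2b37 (Pearson r = 0.974), Timm10b (0.954), Ugt2b10 (0.948), Eif2b2 (0.946) and Mal2 (0.944). Those most like Ugdh were Atic (0.953), Slc25a28 (0.951), Yars1 (0.948), Nif3l1 (0.946) and Prmt5 (0.942). Among members, Ugt2a3 and Ugt2b15 followed each other at 0.927 and Ugdh and Ugt2b1 at 0.909. These arrays share slides and groups, so the values describe 4 group means as much as single arrays.

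Other genes of the route were read from lists of other UGTs, of sugar nucleotide supply and use, of glucuronate and ascorbate metabolism, and of glucuronide export. Among the other UGTs, 5 of 7 genes were tested. These include Ugt2b, which was added to the list after its values were seen and is described at the end. It counts in this list's shares and medians, here and on control diet. In SD rats, 2 rose: Ugt2b37 by 0.49 ± 0.0533 (adjusted p = 0.000133) and Ugt2b35 by 0.42 ± 0.0826 (adjusted p = 0.0118). Ugt2b37 was at 5.66, 5.66, 5.74 and 5.58 in SD controls and 6.16, 6.20, 6.18 and 6.07 on PB. In CAR KO rats 0 of 5 were called (0 at an unadjusted p under 0.05), and the response of Ugt2b37 was lower than in SD rats by -0.41 ± 0.0757 (adjusted p = 0.0238). In chimeric mice 4 of 5 rose, Ugt1a9 by 1.21 ± 0.291, Ugt2b35 by 0.89 ± 0.100, Ugt2b10 by 0.86 ± 0.113 and Ugt2b37 by 0.64 ± 0.103, and Ugt2b35 rose more than in SD rats by 0.47 ± 0.132 (adjusted p = 0.0133). Over all probes tested, 2.42% were called higher in SD rats and 19.2% in chimeric mice. The list's median difference was 0.49 in SD rats, 0.08 in CAR KO rats and 0.86 in chimeric mice.

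Of 3 exporters that can move glucuronides out of the hepatocyte, Abcc2 and Abcc3 rose in SD rats and in chimeric mice, while Abcg2 did not pass in either (-0.26 ± 0.381, adjusted p = 0.744, and 0.45 ± 0.216, adjusted p = 0.110). The share of all probes called higher was 2.42% in SD rats and 19.2% in chimeric mice. Abcc3, the transporter on the blood side, was well above background on 0 of 4 SD controls and all 4 SD PB arrays, and was at least 24.8-fold higher on PB (adjusted p = 9.77e-07). It entered this test only through the PB arrays, where it was high, so the adjusted p is no support for the direction. Abcc2, on the bile side, was at 5.72, 5.22, 5.81 and 4.86 on PB, the last of these below SD control 3, a rise of 0.75 ± 0.181 (adjusted p = 0.0325). In CAR KO rats neither Abcc2 (0.18 ± 0.181) nor Abcg2 (-0.18 ± 0.382) was called, 0 of 2 at an unadjusted p under 0.05, and Abcc3 was well above background on 2 of 4 PB arrays and no control. The difference of responses was called for Abcc3, lower in CAR KO rats (adjusted p = 0.00401), and not for Abcc2 (-0.57 ± 0.257, adjusted p = 0.369). Here too Abcc3 was tested only through the SD PB arrays, so its call carries the same limit. In chimeric mice Abcc2 rose by 1.82 ± 0.175 and Abcc3 by 3.46 ± 0.366 as fitted. Of the Abcc3 controls, 5 of 7 were well above background, under the 75% that the filter asks for. Abcc3 thus entered this test too only through its PB arrays, where it was high, so its call is no support for the direction. Abcc2 rose more than in SD rats, by 1.07 ± 0.267 (adjusted p = 0.00634), and Abcc3 less (adjusted p = 0.0352), with no size given since SD controls were not well above background.

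Among 17 genes of sugar nucleotide supply and use, 1 rose in SD rats, Entpd5 (0.51 ± 0.102, adjusted p = 0.0118), an enzyme of the endoplasmic reticulum that hydrolyses UDP to UMP. It was at 3.87, 3.67, 3.70 and 3.98 in SD controls and 4.29, 4.23, 4.40 and 4.36 on PB. In CAR KO rats 0 of 17 were called, with 3 at an unadjusted p under 0.05. In chimeric mice 5 of 15 rose and 1 fell, a share of calls near the 41.7% over all probes. Those that rose were Pgm2 (1.38 ± 0.155), Entpd5 (0.90 ± 0.138), Nme2 (0.66 ± 0.124), Nme1 (0.50 ± 0.132) and Slc35d1 (0.52 ± 0.111). Nme2 and Nme1 are nucleoside diphosphate kinases. Slc35d1, whose second probe was not called (0.14 ± 0.205), carries UDP-glucuronate into the endoplasmic reticulum. Hk1, a hexokinase, fell (-1.08 ± 0.269 as fitted). Hk1 was well above background on 7 of 7 controls but only 2 of 7 PB arrays. It passed the filter only through its controls, where it was high. Its direction was thus set by the filter, and its call adds no support to the count. Against SD rats the chimeric response was higher for Pgm2 (1.22 ± 0.193), the first Slc35d1 probe (0.57 ± 0.146) and Nme2 (0.46 ± 0.153). It was lower for Hk1 (adjusted p = 0.0436), with no size given since its chimeric PB arrays were dim. The larger rise in chimeric mice is not read from the second Slc35d1 probe, up there by 0.14. That probe was at -2.48, -2.53, -2.27 and -2.09 in SD controls and at -2.42, -2.01, -0.87 and -2.37 on PB. The list's median difference was 0.03 in SD rats, -0.03 in CAR KO rats and 0.50 in chimeric mice.

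Of 8 genes of glucuronate and ascorbate metabolism, 0 were called in SD rats (4 at an unadjusted p under 0.05) and 0 in CAR KO rats (2 at an unadjusted p under 0.05). In chimeric mice Cryl1, an enzyme that uses L-gulonate, rose by 1.32 ± 0.228 (adjusted p = 0.000358) and Rgn, the gluconolactonase of ascorbate synthesis, fell by 0.88 on the log2 scale (-0.88 ± 0.163, adjusted p = 0.000613). Calls are common in that comparison, at 41.7% of all probes. Cryl1 differed by 0.86 ± 0.247 in SD rats (adjusted p = 0.066) and by 0.80 ± 0.248 in CAR KO rats (adjusted p = 0.155). On control diet CAR KO rats had lower levels than SD rats for 3 of 5 other UGTs, 4 of 17 sugar nucleotide genes, 2 of 8 genes of glucuronate metabolism and 0 of 2 exporters (1 at an unadjusted p under 0.05), and none of these lists had a gene called higher. Over all probes 20.2% were called lower there, near the shares of the sugar nucleotide and glucuronate lists.

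**Figure D4:**
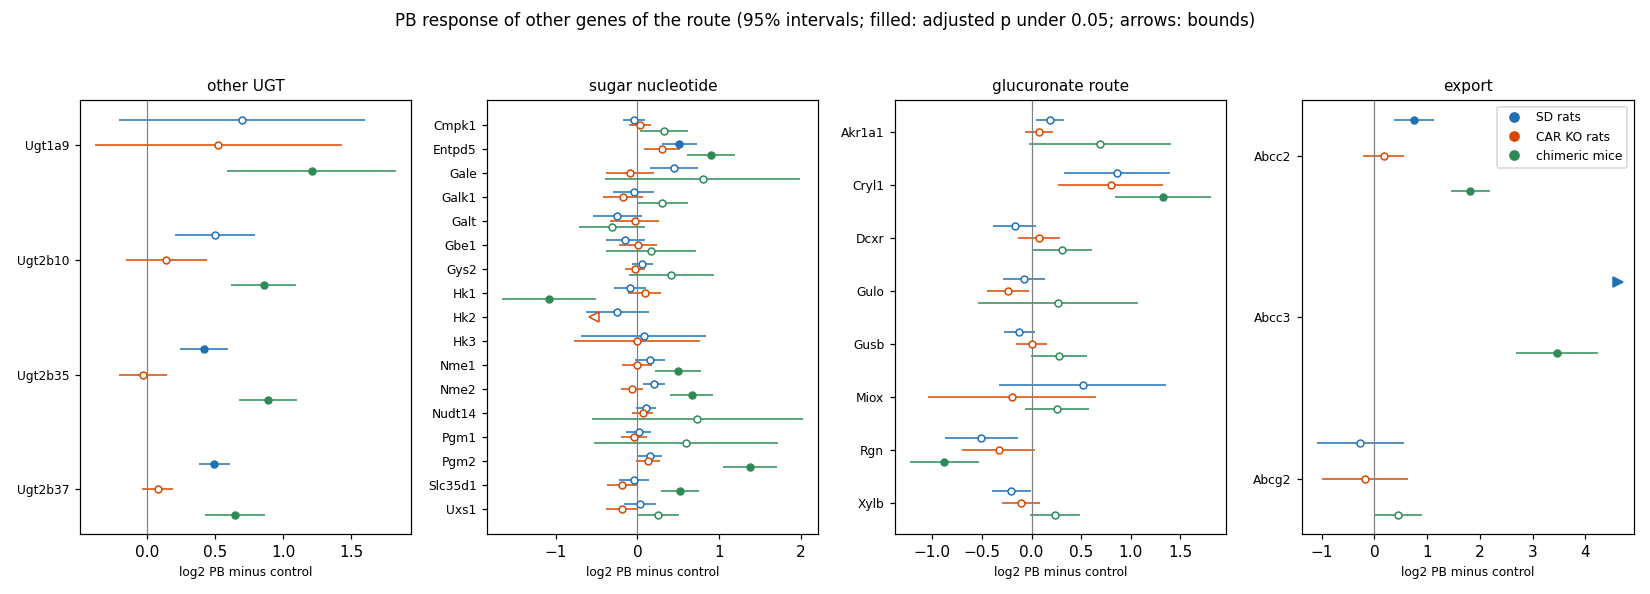
Log2 difference between PB and control diets (horizontal axis, a separate scale in each panel) for genes of 4 lists around glucuronidation in SD rats, CAR KO rats and chimeric mice, with 95% intervals; filled points passed the adjusted p threshold of 0.05, arrows are bounds, and Ugt2b is left out. Filled points for CAR KO rats are absent from all 4 panels.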

How the data were processed

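Liver RNA was measured on 30 one-colour Agilent rat arrays in 6 groups taken from the sample titles. Per the file headers, spots were read by Feature Extraction 10.7.3.1. The deposited intensity values are its processed signal, from which that software had subtracted background and spatial trend, with no scaling across arrays. The deposited flags of each spot come from the same software, per the file headers. The authors' series matrix holds log2 values of unstated centring; each column correlated at 1 with log2 of the processed signal of its array, column medians ran from -4.20 to -3.36, and it served as an alternative.

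Control spots (4259 of 62976) were left out, outlier spots treated as missing, and a probe's spots averaged on the log2 scale. Each array's 75th percentile was subtracted. Probes were named through RefSeq accessions (18004 of 30367 probes, 15170 symbols). A probe was tested where it was well above background on at least 75% of the arrays of 1 group compared, with limma 3.58.1 (lmFit and eBayes, R 4.3.3, data.table package 1.17.8) and Benjamini-Hochberg adjustment over all probes tested. The 16 rat arrays, the 14 chimeric arrays, and all 30 for chimeric against SD rats, made 1 fit each. A gene was read through its probe with the highest mean over rat arrays, with the other probe of a member, of Cyp2b2 and of Nr1i3 given beside it. Errors are SE. The number of arrays and brightness over background limit precision. The replicate numbers were checked and not treated as pairs, with the values in the closing section. The steps were tested on simulated data: 49 of 50 probes changed by a log2 of 3 were recovered for the SD PB response (19041 probes), 39 of 50 at 1 and 27 of 50 at 0.5. At 1 and 0.5, 32 and 10 of 50 were recovered for CAR KO minus SD (19948 probes), 35 and 14 for the chimeric response (15999) and 20 and 9 for chimeric minus SD (19311). Unchanged probes called numbered 8, 7, 5 and 4 in the same order of comparisons. Only 50 probes were changed at each size, far fewer than were called in chimeric mice, so recovery there may differ.

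All members are named, and genes of the route lists where they passed in the SD response or in a difference of responses, at most 12, with others of the lists named as examples after their values were seen. A further gene of the sugar nucleotide list is not reported here. The members and lists were chosen with earlier results of these data known. P-values set a difference of group means against the spread between arrays within groups. That spread is pooled over all groups of a fit and shared in part across probes. Alternatives are given in the closing section.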

Additional observations from a re-analysis of the deposited data

Results flagged for a closer look

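Of 48 sets of arrays (a member probe in 1 group) tested for a value far from the rest, 3 were marked, and chance marks about 1 in 20 sets. The Ugp2 level of CAR KO control 1 was 4.42, below the other 3 of its group at 4.54 to 4.55. The Ugt2b1 level of chimeric PB 5 was 7.38, the lowest of 7. The Ugt2b7 level of SD PB 4 was -3.45, above the other 3 of its group at -5.08 to -4.89, and the only one of them well above background.

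For 3 members the PB response differed between chimeric mice and SD rats by a test of the difference itself: Ugdh by 0.64, Ugt2b15 by 0.54 and Ugt2b7 by 2.40 as fitted, from which no size is drawn, since chimeric controls and most SD arrays were not well above background. Ugt2b7 entered that test only through the chimeric PB arrays, so its call is no support.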

How the results depend on the processing

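Each count of members called was recomputed with quantile normalization, median centring, a percentile over measured probes, normexp (offset 50), no filter, the authors' series matrix, 1 probe per symbol, other sets of arrays in the fit, a trended robust spread, blocks, and each array left out in turn. The SD PB count of 3 became 1 with only the compared groups in the fit. For the CAR KO minus SD PB response, 0 became 1 with all 30 arrays and with normexp, and ran from 0 to 1 with each array left out. The CAR KO minus SD control count of 5 became 3 with all 30 arrays. The chimeric PB count of 5 became 2 with the slide block and 2 with only the slide that holds both diets, an alternative chosen after seeing the data. The chimeric minus SD PB response count of 3 became 1 with slide as a random block and 0 with the slide block. Ugt2b15 in chimeric minus SD control reversed to -0.45 with quantile normalization. Causes were not tested. Of the results for single member probes, 1096 kept direction and side of the threshold, 60 lost a call and 28 gained one. A further 24 changed direction without a call, and 1 reversed. The count of all probes called in SD rats was 788, but 222 with all 30 arrays, 202 with the compared groups and 4035 with no filter; in CAR KO rats 30, but 1948 with no filter, 18 with quantile normalization and 0 with the compared groups. It was 95 and then 42 for CAR KO minus SD response and 6715 and then 2264 for CAR KO minus SD control with all 30 arrays. In chimeric mice 6668 probes became 2810 with a random slide block, 170 with the slide block and 238 on 1 slide; for chimeric minus SD response 3456 became 556 and 34. Leaving out 1 array gave from 436 (without SD PB 3) in SD rats and from 8 to 15 (without CAR KO PB 2 or 4 or control 1 or 4) in CAR KO rats. Members called with each array left out ran from 2 to 3 in SD rats, 5 to 6 in chimeric mice, 2 to 4 for chimeric minus SD response, 5 to 6 for CAR KO minus SD control and 4 to 5 for chimeric minus SD control, and stayed at 0 in CAR KO rats. Ugdh in SD rats lost its call with median centring (adjusted p = 0.0711) and scaling by measured probes (adjusted p = 0.0513). Replicate numbers were not treated as pairs: same-numbered arrays of the 2 diets correlated from -0.14 to 0.08 in SD rats, -0.28 to 0.15 in CAR KO rats and -0.22 to 0.83 in chimeric mice. Arrays of different number correlated from -0.09 to 0.12, -0.20 to 0.29 and -0.71 to 0.77. A control's best match bore its own number for 1 of 4, 1 of 4 and 3 of 7 controls. With the replicate block, members called were 3 in SD rats, 0 in CAR KO rats, 6 in chimeric mice, 0 for CAR KO minus SD response, 2 for chimeric minus SD response, 5 for CAR KO minus SD control and 4 for chimeric minus SD control. Median centring moved the median of all probes by 0.28 in the chimeric PB response and 0.40 in chimeric minus SD control. A slide block could not be fitted for rat comparisons. Dim signal limits Ugt2b7 in rats.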

Other observations

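A further gene of the UGT2B cluster, Ugt2b, was added to the list of other UGTs after its values were seen. Its brighter probe read 6.18, 6.44, 7.29 and -3.85 in SD controls 1 to 4 and 6.33, -2.63, -2.55 and 6.25 in SD PB 1 to 4, so 3 of 8 SD livers were lower by over 8 units on the log2 scale, on both diets. In CAR KO rats the same probe read 0.10 to 0.68 on all 8 arrays, and in chimeric mice 6.14 to 7.29 on all 14. The second Ugt2b probe gave the same 3 SD arrays at -7.43, -6.87 and -6.99, not well above background, and the other 5 at 0.94 to 1.96. It read -7.88 to -5.68 in CAR KO rats, with 1 of 8 arrays well above background, and 0.12 to 1.35 in chimeric mice. The PB response of Ugt2b was not called in SD rats (-2.16 ± 2.39, adjusted p = 0.658) or in chimeric mice (0.19 ± 0.155, adjusted p = 0.334).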
